A study of Mus musculus with 58 samples.

Results

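The genes described here are 10 genes of the actin cytoskeleton and of the transcription programmes that answer to it: Actb, Srf, Vcl, Flna and Rock2, and the YAP target genes Ccn1, Ccn2, Ankrd1, Amotl2 and Lats2. They were listed by symbol and chosen by differences already seen between these groups in the read counts and T>C read counts, so their values are given as a description, with no p-value. Reads of all annotated 3′ UTR intervals of a gene were summed, which gave values for 9 of the 10 genes, from 58 of 46420 intervals and among 20177 genes. Reads of Vcl, the gene for the focal adhesion protein vinculin, are not analysed here, and it appears below by its promoter alone.

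Serum response factor (SRF) is a transcription factor that binds CArG boxes in promoters of cytoskeletal genes and of its own gene. Its cofactors MRTFA and MRTFB bind unpolymerised actin and enter the nucleus when actin polymerises, so that actin genes such as Actb are both the material and the targets of the pathway. The coactivator YAP acts through TEAD factors and is also sensitive to actin tension, and the kinase LATS2 and the angiomotin AMOTL2 restrain YAP while their own genes are among its targets. In embryonic stem cells, YAP and TEAD factors are best known for their part in the choice between pluripotency and extraembryonic fates.

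The cells were E14 mouse embryonic stem (mES) cells of the 129/Ola strain, kept on gelatin in serum with LIF. In DPY30–mAID cells both copies of Dpy30, which encodes a core subunit of the SET1/COMPASS H3K4 methyltransferases, carried a mini auxin-inducible degron and the cells expressed OsTIR1, so that auxin led to loss of the protein. In RBBP5–FKBP cells the core subunit RBBP5 carried an FKBP degron removed with dTAG-13, and DPY30–mAID Kdm5a/b dKO cells in addition lacked the H3K4 demethylases KDM5A and KDM5B. The 0 h controls of each line carried the same tags and deletions and received no ligand. SLAM-seq, in which RNA made during 60 min with 100 µM 4-thiouridine (4SU) is read as T>C conversions, was done at 0, 2, 8 and 24 h in DPY30–mAID and RBBP5–FKBP cells with 3 libraries a group, and at 0, 2, 4, 8, 24 and 48 h in dKO cells with 2 libraries a group. Quant-seq of unlabelled RNA was done in DPY30–mAID cells in 1 µM retinoic acid (RA) with DMSO or auxin at 8 h and on days 1, 2, 4 and 6, with DMSO cells at 0 h as the start, and with 2 libraries a group. RA was given in medium without LIF, so effects of RA and of LIF withdrawal cannot be told apart in the comparisons with 0 h. The degron lines were clonal, 2 dKO clones were isolated, and which replicate came from which clone was not given in the sources used here. The study calls the SLAM-seq replicates biological. Whether the Quant-seq replicates came from separate cultures was not given in the sources used here, so the spread between those libraries may be technical.

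Libraries held 2013350 to 2806821 reads in DPY30–mAID cells, 1721185 to 2852331 in RBBP5–FKBP cells, 5931269 to 7792404 in dKO cells and 1264241 to 2543632 in Quant-seq. Reads with a T>C conversion made up 4.85 to 16.1% of the reads in DPY30–mAID and RBBP5–FKBP cells and 2.04 to 5.27% in dKO cells, whose reads covered fewer T positions (11.2 against 18.7 a read). In the unlabelled Quant-seq libraries they made up 0.303 to 0.388%. At 8 h in DPY30–mAID cells the share was 13.03 and 9.82% in libraries 1 and 2 and 5.51% in library 3, which thus stood apart. Both DMSO libraries of RA day 6 held identical values and were counted as 1 library, without a test at that time. Summed markers of embryonic stem cells stood at 6455 to 9438 CPM (reads scaled by library size, the usual counts-per-million unit) in the SLAM-seq controls.

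Promoters were read for 8 of the 10 genes from RefSeq (GRCm38.p6), and 250 bases before the annotated start are printed below for a gene with CArG boxes and for 3 YAP targets, to show the sites by which SRF and TEAD factors are known to act. Actb and Ccn2 were not matched in the promoter table used here. Both kinds of motif were searched on both strands, from 250 bases before to 50 after the start: the CArG box (CC, then 6 bases that are each A or T, then GG) and the TEAD core GGAATG, which reads CATTCC on the other strand. Capitals mark these matches, and every sequence is given 5′ to 3′ on the strand of its gene. Srf at chr17:46556163-46556412 (minus strand), Ccn1 at chr3:145649986-145650235 (minus strand), Amotl2 at chr9:102717554-102717803 (plus strand) and Ankrd1 at chr19:36119845-36120094 (minus strand) read as follows.
Srf: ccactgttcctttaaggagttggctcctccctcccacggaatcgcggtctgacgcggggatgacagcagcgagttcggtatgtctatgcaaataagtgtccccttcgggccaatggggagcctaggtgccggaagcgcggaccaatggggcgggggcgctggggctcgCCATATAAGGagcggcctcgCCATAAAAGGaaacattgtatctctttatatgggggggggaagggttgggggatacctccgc
Ccn1: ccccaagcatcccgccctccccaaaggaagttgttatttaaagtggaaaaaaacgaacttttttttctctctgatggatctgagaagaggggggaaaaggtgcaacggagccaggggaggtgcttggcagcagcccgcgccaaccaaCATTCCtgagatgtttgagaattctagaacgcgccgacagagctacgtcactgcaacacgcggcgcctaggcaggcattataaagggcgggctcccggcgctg
Amotl2: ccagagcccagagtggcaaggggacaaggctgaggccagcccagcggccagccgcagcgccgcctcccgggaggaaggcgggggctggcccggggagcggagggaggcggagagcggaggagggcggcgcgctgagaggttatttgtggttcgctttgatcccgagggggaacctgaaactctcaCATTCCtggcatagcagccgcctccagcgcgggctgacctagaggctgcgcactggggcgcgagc
Ankrd1: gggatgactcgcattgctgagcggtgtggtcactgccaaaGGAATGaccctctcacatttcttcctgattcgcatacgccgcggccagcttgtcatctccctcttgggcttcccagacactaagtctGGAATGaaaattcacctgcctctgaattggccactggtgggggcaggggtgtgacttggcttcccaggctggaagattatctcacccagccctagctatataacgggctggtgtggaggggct

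The Srf promoter held CArG boxes at -82 and -62, counting from -1 at the last base before the start. Vcl held the other CArG box among the members, at -227, so that 2 members had this motif against 1.63% of all 32851 promoters. TEAD cores were found in 6 members: at -103 in Ccn1, at -65 in Amotl2, at -210 and -123 in Ankrd1, at -146 in Flna, at -143 in Vcl and at 5 after the start of a Lats2 promoter. Of all promoters, 14.7% held a TEAD core. Neither motif was found in this window of Rock2. A match describes letters only, and nothing was measured here on binding.

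T>C reads of Actb, the gene of beta-actin, fell past the call thresholds in 2 lines. Its 3′ UTR interval lay at chr5:142903115-142903797 on the minus strand (GRCm38, ENSMUSG00000029580). In DPY30–mAID cells its T>C reads stood at 679.7, 629 and 667 CPM at 0 h, at 509, 535 and 563 at 2 h, at 317, 241 and 125 at 8 h and at 953, 929 and 771 at 24 h, in each case on the scale of all reads of the library. Each 8 h library was below each 0 h library, and each 24 h library was above them. The log2 fold change was -1.64 ± 0.27 (SE) at 8 h, past the call thresholds of edgeR (adjusted p of at most 0.05 over all genes and an absolute log2 fold change of at least 1), and 0.41 ± 0.26 at 24 h, below them. The 8 h call was lost without replicate 2 (-1.71).

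The same measure in RBBP5–FKBP cells had lower values at each later time. Actb T>C reads were 418, 388 and 409 CPM at 0 h, 274, 246 and 238 at 2 h, 200.5, 233 and 143 at 8 h and 118, 107 and 129 at 24 h. Each 24 h library lay below each earlier library. The log2 fold changes were -0.70 ± 0.17 at 2 h, -1.11 ± 0.17 at 8 h and -1.81 ± 0.17 at 24 h. Those of 8 and 24 h passed the thresholds. The 8 h call was lost without 8 h replicate 3 (-0.92).

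In dKO cells, Actb T>C reads were 89.7 and 102.7 CPM at 0 h, 63.8 and 84.2 at 2 h, 77.9 and 69.5 at 4 h, 85.3 and 97.2 at 8 h, 87.7 and 86.0 at 24 h and 88.0 and 83.3 at 48 h. Except at 8 h, each treated library lay below both controls. The log2 fold change was -0.38 ± 0.15 after 2 h and -0.40 ± 0.15 after 4 h. It was -0.20 ± 0.15 and -0.26 ± 0.15 after 24 and 48 h, and none of these passed the thresholds. There, 22.9% of Actb reads at 0 h mapped to more than 1 place, against 0.19% in the other lines, so a share of them may belong to near-identical copies.

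These values stand against a shift of all genes, since T>C reads were scaled to the total reads of a library. The median log2 fold change over all genes tested in DPY30–mAID cells was -0.72 at 8 h and -0.14 at 24 h. It was -0.49 and -0.91 at these times in RBBP5–FKBP cells, and -0.80 and -1.29 in dKO cells at 24 and 48 h. Actb thus lay below the median of all genes at 8 h in DPY30–mAID cells and above it at 24 and 48 h in dKO cells. With T>C reads scaled to each other, which sets that shift aside, the Actb change was -0.93 for DPY30–mAID cells at 8 h and, for RBBP5–FKBP cells, -0.63 at 8 h and -0.91 at 24 h, no longer past the thresholds, and in dKO cells it turned to 0.59 at 24 h and to 1.05 at 48 h, the latter past the thresholds as a rise. At 2 and 4 h in dKO cells it stayed below 0, at -0.29 and -0.15.

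**Figure D1:**
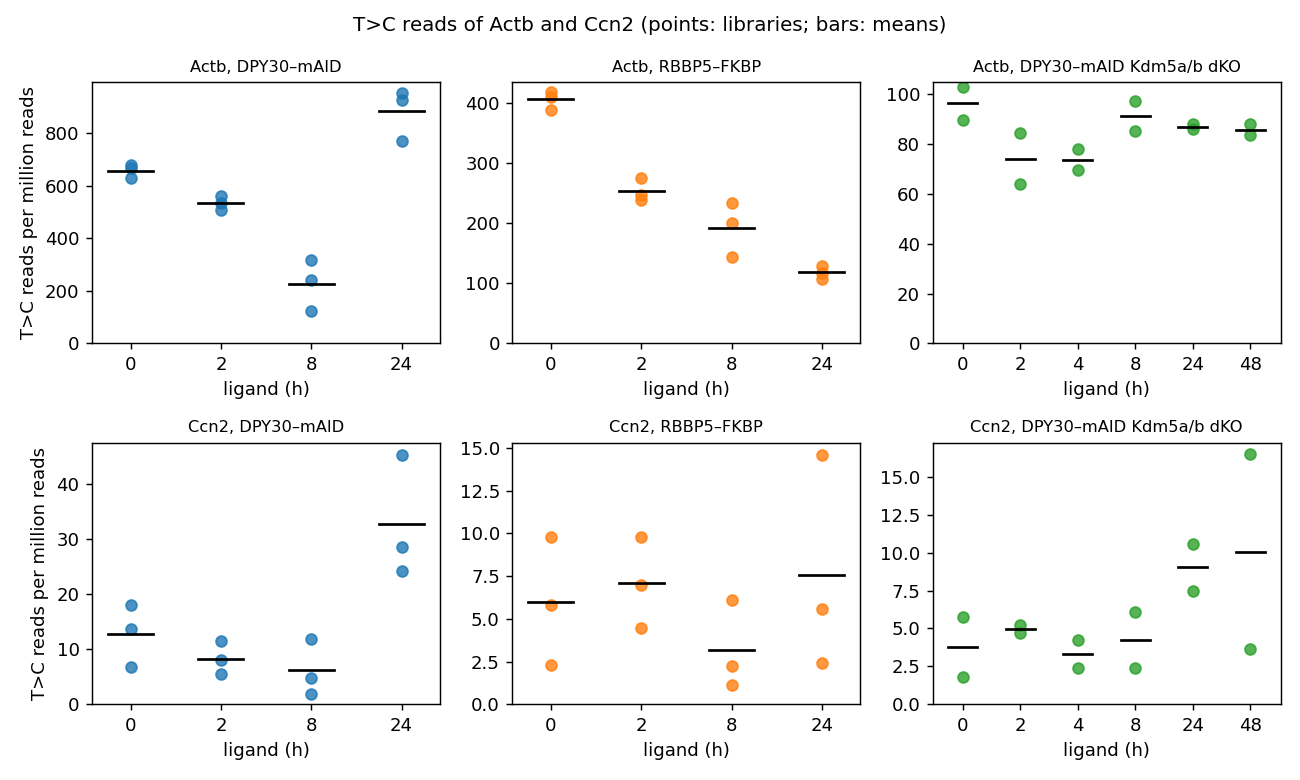
T>C reads of Actb (top row) and Ccn2 (bottom row) as CPM on the scale of all reads, against hours of ligand, in DPY30–mAID, RBBP5–FKBP and DPY30–mAID Kdm5a/b dKO cells. Points are libraries and bars are group means; Actb at 24 h reached 771 to 953 in DPY30–mAID cells and 107 to 129 in RBBP5–FKBP cells, and the Ccn2 libraries overlapped between most groups.

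Total reads of Actb were also compared at 24 h. Total Actb was 6569, 6553 and 7099 CPM at 0 h and 4730.0, 4479 and 4339 at 24 h in DPY30–mAID cells, with no overlap and a log2 fold change of -0.59 ± 0.07 that did not reach the fold threshold. RBBP5–FKBP cells had 8320.3, 6701 and 6778 CPM at 0 h and 6537, 6397 and 6824 at 24 h, with overlap and a log2 fold change of -0.17 ± 0.10. In dKO cells the log2 fold change of total Actb was -0.40 ± 0.05 at 24 h. The share of Actb reads with T>C went from 9.40 to 10.3% at 0 h to 17.8 to 20.7% at 24 h in DPY30–mAID cells and from 5.02 to 6.04% to 1.67 to 1.89% in RBBP5–FKBP cells.

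Srf, the gene of the transcription factor itself, was read at chr17:46546839-46549082 on the minus strand (ENSMUSG00000015605). Total Srf in RBBP5–FKBP cells was 88.7, 84.8 and 93.0 CPM at 0 h, 88.9, 100.5 and 97.9 at 2 h, 51.3, 49.2 and 43.2 at 8 h and 47.8, 43.3 and 45.8 at 24 h. The 8 and 24 h libraries lay below all 0 and 2 h libraries. The log2 fold changes of -0.93 ± 0.19 at 8 h and -0.99 ± 0.19 at 24 h did not reach the fold threshold, although the latter passed the thresholds with DESeq2 and without 0 h replicate 2 (-1.02) or 24 h replicate 1 (-1.02), as the former did without replicate 2 (-1.03).

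Total Srf in DPY30–mAID cells was 68.8, 72.7 and 59.8 CPM at 0 h, 56.7, 59.5 and 39.2 at 8 h and 44.1, 44.1 and 55.3 at 24 h, lower in each of these libraries than in the controls. In dKO cells it was 47.5 and 40.9 at 0 h, 57.7 and 59.8 at 24 h and 65.2 and 57.05 at 48 h, higher in each library of these times. The log2 fold changes were -0.50 ± 0.21 at 24 h in DPY30–mAID cells and 0.36 ± 0.11 at 24 h and 0.38 ± 0.11 at 48 h in dKO cells, none past the thresholds. Srf had few T>C reads, 23, 47 and 32 reads at 0 h and 42, 24 and 2 at 8 h in DPY30–mAID cells. Their log2 fold change of -0.48 ± 0.54 had too wide an error to show a change of that size.

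Flna encodes filamin A, which crosslinks actin filaments, and it lies at chrX:74223461-74223977 on the minus strand (ENSMUSG00000031328; this interval held 98.9% of its reads). Total Flna was 179, 212 and 201 CPM at 0 h and 128, 131 and 147 at 24 h in DPY30–mAID cells, without overlap, and the log2 fold change was -0.56 ± 0.13. The RBBP5–FKBP libraries of 0 h (238, 232 and 171) and 24 h (234, 207 and 229.9) overlapped. For Flna in RBBP5–FKBP cells T>C reads were 14.3, 9.47 and 5.08 CPM at 0 h and 3.10, 5.12 and 0.482 at 24 h, with overlap, and the log2 fold change of -1.72 ± 0.70 missed the thresholds with edgeR and passed them with DESeq2 or without 0 h replicate 3 (-2.03) or 24 h replicate 2 (-2.40). Scaled to each other, these reads gave -0.81. T>C reads of Flna in dKO cells numbered 16 and 24 at 0 h, 8 and 6 at 24 h and 4 and 8 at 48 h. These fell by 1.44 ± 0.53 and 1.67 ± 0.55 on the log2 scale, from few reads. The 24 h call was lost without 0 h replicate 2 (-1.21) or without either 24 h library (-1.63 and -1.30), and the 48 h call without 0 h replicate 2 (-1.43) or 48 h replicate 1 (-1.26). DESeq2 did not make the 24 h call (-1.47). With T>C reads scaled to each other the changes were -0.65 and -0.38, neither past the thresholds.

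Rock2 encodes a kinase that acts downstream of RHOA on myosin and cofilin, and was read at chr12:16984642-16987823 on the plus strand (ENSMUSG00000020580). Its total level in DPY30–mAID cells was 48.3, 42.4 and 44.2 CPM at 0 h and 29.7, 29.6 and 25.8 at 24 h, and its T>C reads were 14.2, 12.1 and 13.04 CPM and 6.42, 7.27 and 2.02 CPM. Both sets of libraries were apart at 24 h. Log2 fold changes were -0.67 ± 0.24 for the total and -1.34 ± 0.56 for T>C reads, and neither passed the thresholds.

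Among the YAP targets, Ccn2 was higher after 24 h of ligand in 2 of the 3 lines. Ccn2, also known as Ctgf, encodes a secreted matricellular protein and was read at chr10:24597076-24598683 on the plus strand (ENSMUSG00000019997). Total Ccn2 in DPY30–mAID cells was 38.1, 22.1 and 31.2 CPM at 0 h and 90.7, 75.2 and 62.2 at 24 h. Each 24 h library was above each 0 h library, and Ccn2 rose by 1.32 ± 0.29 on the log2 scale. Its T>C reads were 18.1, 6.77 and 13.8 CPM at 0 h, 11.9, 4.84 and 1.82 at 8 h and 45.3, 28.6 and 24.2 at 24 h. Again the 24 h libraries were the highest, with a log2 fold change of 1.34 ± 0.48 that missed the thresholds and passed them without replicate 3 (1.58) or with T>C reads scaled to each other (1.47).

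In dKO cells, total Ccn2 was 4.85 and 14.9 CPM at 0 h, 24.5 and 19.5 at 2 h and 9.16 and 24.2 at 8 h. It was 48.9 and 63.9 at 24 h and 25.6 and 116 at 48 h. Every library of 2, 24 and 48 h was above both controls, and the libraries of each group differed among themselves by more than those of Actb did. For total Ccn2 the log2 fold changes were 2.42 ± 0.59 at 24 h and 2.73 ± 0.58 at 48 h, both past the thresholds. The 24 h call was lost without 0 h replicate 1 (1.85) or either 24 h library (2.60 and 2.21), and the 48 h call without 48 h replicate 2 (1.24). T>C reads of Ccn2 rose by 1.16 ± 0.37 at 24 h (1.76 and 5.77 CPM at 0 h against 7.48 and 10.6) and by 1.30 ± 0.36 at 48 h (3.66 and 16.5). DESeq2 made neither T>C call (1.18 and 1.32), and both rested on single libraries: at 48 h the change was 0.71 without 0 h replicate 1 and -0.18 without 48 h replicate 2, and at 24 h it was 0.57 without 0 h replicate 1 and 0.88 without 24 h replicate 2.

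In RBBP5–FKBP cells T>C reads of Ccn2 were 2.31, 9.82 and 5.81 CPM at 0 h and 14.6, 5.59 and 2.41 at 24 h, and the groups overlapped. The log2 fold change of 0.29 ± 0.67 had too wide an error to tell a T>C rise of the size seen in the other lines from none. Total Ccn2 was 14.8, 46.6 and 31.6 CPM at 0 h and 63.3, 28.4 and 25.5 at 24 h, also with overlap. Its log2 fold change was 0.29 ± 0.42 (95% interval -0.53 to 1.11). The interval of total Ccn2 at 24 h was 0.75 to 1.88 in DPY30–mAID cells, which overlapped this one. In dKO cells it was 1.27 to 3.57, which did not. The difference between lines was not tested.

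Ccn1, also known as Cyr61, encodes a related matricellular protein and was read at chr3:145646976-145647665 on the minus strand (ENSMUSG00000028195). It was close to the limit of detection in 2 lines, with 8, 17 and 7 reads at 0 h and 18, 3 and 12 at 24 h in DPY30–mAID cells and 1, 14 and 1 at 0 h in RBBP5–FKBP cells. The deeper dKO libraries gave T>C values of 5.00 and 14.4 CPM at 0 h, 16.5 and 14.6 at 2 h, 6.25 and 4.89 at 4 h, 4.20 and 6.53 at 8 h, 6.90 and 12.4 at 24 h and 1.52 and 7.87 at 48 h. Only the 2 h libraries lay apart from the controls, above them. T>C reads of Ccn1 fell by 1.15 ± 0.33 at 48 h, a call that was lost without 0 h replicate 2 (-0.14) or 48 h replicate 1 (-0.40), that DESeq2 did not make (-1.14), and that turned to 0.15 with T>C reads scaled to each other.

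Amotl2, whose product binds actin and YAP, was lower in total reads at 24 h in RBBP5–FKBP cells and had higher total values in the other lines, a difference that was not tested. Its main interval lay at chr9:102731648-102733418 on the plus strand (ENSMUSG00000032531; 84.0% of its reads). Total Amotl2 in RBBP5–FKBP cells was 60.5, 93.3 and 60.3 CPM at 0 h, 35.1, 54.7 and 55.9 at 8 h and 37.7, 34.9 and 32.8 at 24 h. It fell by 1.05 ± 0.24 on the log2 scale at 24 h, without overlap, and lost the call without replicate 2 (-0.83) or 3 (-1.11) of every group and without 0 h replicate 2 alone (-0.81). Its T>C reads there fell by 1.94 ± 0.54, from 16.2, 22.4 and 10.5 CPM to 4.43, 0.93 and 7.71, and the call was lost without 24 h replicate 2 (-1.47) and with T>C reads scaled to each other (-1.04).

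Total Amotl2 in DPY30–mAID cells was 53.7, 55.2 and 58.0 CPM at 0 h, 34.5, 35.8 and 38.7 at 8 h and 97.1, 109 and 62.6 at 24 h. Its libraries at 8 h were thus all lower and those at 24 h all higher than the controls. The log2 fold changes of -0.72 and of 0.67 ± 0.20 did not reach the fold threshold. Its T>C reads were 20.02, 9.98 and 26.1 CPM at 0 h and 11.9, 10.2 and 2.28 at 8 h, with overlap. Their log2 fold change of -1.29 ± 0.47 missed the thresholds with edgeR and passed them with DESeq2, under the replicate block (-1.41) and without 0 h replicate 2 (-1.60) or 8 h replicate 1 (-1.69). Scaled to each other, these reads gave -0.63. In dKO cells total Amotl2 was 102 and 104 CPM at 0 h, 171 and 164 at 24 h and 187 and 202 at 48 h, with log2 fold changes of 0.64 ± 0.08 and 0.83 ± 0.08. Its T>C reads went the other way there, from 21.5 and 23.5 CPM at 0 h to 16.8 and 17.3 at 24 h and 13.6 and 19.9 at 48 h. These libraries lay below both controls, and the log2 fold changes of -0.46 ± 0.20 and -0.51 ± 0.20, not past the thresholds, turned to 0.34 and 0.78 with T>C reads scaled to each other.

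Lats2 was read at 10 intervals, of which chr14:57689662-57691770 on the minus strand (ENSMUSG00000021959) held 82.2% of the reads. RBBP5–FKBP libraries held 19, 17 and 30 reads at 0 h, 20, 12 and 20 at 2 h, 0, 5 and 3 at 8 h and 1, 0 and 6 at 24 h. The 8 and 24 h libraries lay below all earlier ones. The log2 fold changes of -2.59 ± 0.94 and -2.93 ± 0.95 did not pass the thresholds with edgeR and passed them with DESeq2, and the latter also passed without 24 h replicate 3 (-4.96). Only the 0 and 2 h groups averaged 10 or more reads, so Lats2 passed the filter on low counts through groups in which it was high. That favours a fall. In DPY30–mAID cells Lats2 had 3, 0 and 0 reads at 0 h, too few for a comparison.

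Ankrd1 encodes a nuclear and sarcomeric ankyrin repeat protein and was read at chr19:36111965-36112706 on the minus strand (ENSMUSG00000024803). It had 0 reads in all 24 DPY30–mAID and RBBP5–FKBP libraries, among 54631066 reads, which allows up to 0.0549 CPM over these libraries together and 1.05 to 1.74 CPM in a single library. In dKO cells it had 1 and 0 reads at 0 h, 0 and 3 at 24 h and 7 and 11 at 48 h, in which the 48 h libraries were the highest. These limits cover counting error only.

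**Figure D2:**
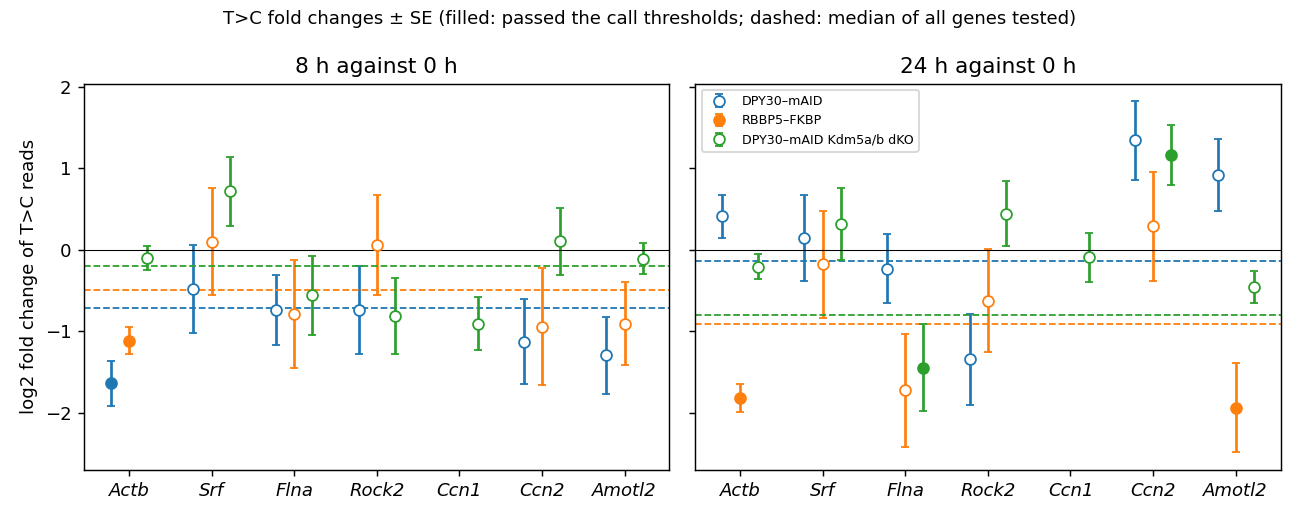
Log2 fold change of T>C reads ± SE for 7 members at 8 h (left) and 24 h (right) against 0 h, by line; filled points passed the call thresholds and dashed lines are the medians of all genes tested. Actb at 24 h stood at 0.41 in DPY30–mAID cells and at -1.81 in RBBP5–FKBP cells, and Ccn2 at 24 h stood above the median of all genes in the 3 lines.

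Counted over the members tested for T>C reads, those averaging 10 or more reads in some group, 1 of 6 passed the thresholds at 8 h and 0 of 6 at 24 h in DPY30–mAID cells, where 14.8% and 3.5% of all genes did. At 24 h 2 of the 6 passed with an unadjusted p, at the same fold, and DESeq2 called 0. In RBBP5–FKBP cells 1 of 6 passed at 8 h and 2 of 6 at 24 h, against 5.57% and 23% of all genes. DESeq2 called 2 in DPY30–mAID cells at 8 h, with Amotl2 added, and 1 and 3 in RBBP5–FKBP cells, with Flna added at 24 h. In dKO cells 2 of 7 passed at 24 h and 3 of 7 at 48 h, against 27.2% and 64.7%, and DESeq2 called 0 and 1. Since the members were chosen with these contrasts known, nothing is read from these shares.

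At 2 h no member passed in any line (0 of 6, 0 of 6 and 0 of 7 by edgeR and by DESeq2; 0, 0 and 1 with an unadjusted p at the same fold), where 0, 0.147 and 0% of all genes passed. At 4 and 8 h in dKO cells the count was 0 of 7 by both tools and with an unadjusted p, where 0.184% and 0.604% of all genes passed. For total reads 1 of 7 passed at 24 h in DPY30–mAID cells (Ccn2) and 1 of 7 in RBBP5–FKBP cells (Amotl2), where 13.2% and 3.48% of all genes did. In dKO cells it was 1 of 8 at 24 h and 1 of 8 at 48 h (Ccn2 both times), where 1.46% and 2.42% of all genes did.

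The directions over all genes depended on the scaling. Against total reads, 924 genes were lower and 10 higher at 8 h in DPY30–mAID cells, and with T>C reads scaled to each other 90 and 62. At 24 h these were 170 and 51 against 313 and 263. For RBBP5–FKBP cells they were 259 and 6 against 33 and 11 at 8 h and 1087 and 9 against 43 and 26 at 24 h, and in dKO cells 1614 and 7 against 96 and 68 at 24 h and 3850 and 7 against 112 and 115 at 48 h.

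The share of a gene's reads that carried T>C after 60 min of 4SU differed widely among the members before any ligand. Actb and Flna were at the low end, with 9.72 and 10.2% of their reads in DPY30–mAID cells, 5.63 and 4.37% in RBBP5–FKBP cells and 3.34 and 2.35% in dKO cells. Ccn1, Ccn2 and Amotl2 were at the high end, with 59.4, 41.6 and 33.2% in DPY30–mAID cells and 51.2, 38.3 and 21.9% in dKO cells. In RBBP5–FKBP cells Lats2 had 33.3% (22 of 66 reads), Amotl2 22.7% and Ccn2 19.4%. In dKO cells Lats2 had 5.71% (2 of 35 reads), close to the median. The median over genes with at least 20 reads was 18.9, 10.1 and 5.31% in the 3 lines. In dKO cells Ccn1 ranked 2 and Ccn2 18 of 10820 genes from the top, and in DPY30–mAID cells Ccn1 ranked 50 of 9642 on 32 reads.

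Srf was close to the median in DPY30–mAID cells (20.0%) and dKO cells (4.83%) and below it in RBBP5–FKBP cells, where its 5.51% was about the share of Actb. Unlabelled Quant-seq reads gave 0.221% for Actb, which is the background of the measure. A share depends on how many T positions a read covers as well as on the age of the RNA, so it is compared here within a line only.

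**Figure D3:**
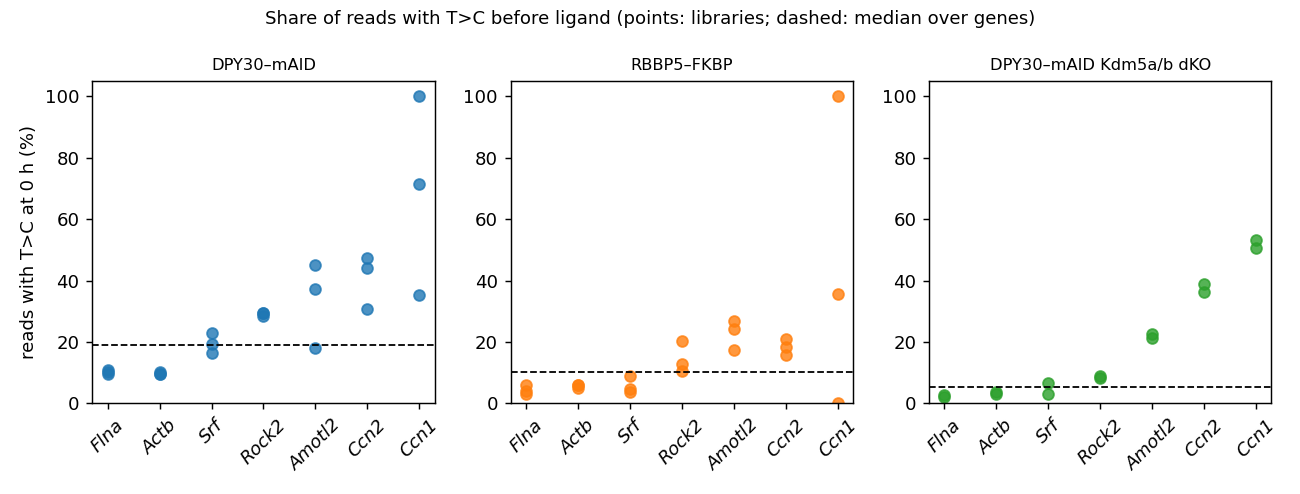
Share of reads with T>C at 0 h, in percent, for 7 members in each line; points are libraries with at least 1 read and the dashed line is the median over genes with at least 20 reads. Actb and Flna lay below the median and Amotl2, Ccn2 and, in dKO cells, Ccn1 (51.2% over both libraries) above it.

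Differentiation in RA was measured as total reads only. In DMSO cells, Actb, Srf, Flna and Rock2 were lowest on day 1, and Ccn2 was higher from day 1 on. Actb was 3830.3 and 3587 CPM at 0 h, 3393 and 3542 at 8 h, 2047 and 1785 on day 1, 3722 and 4230.0 on day 2, 4175 and 4224 on day 4 and 7962 in the single library of day 6. The day 1 libraries were the lowest of all, and the log2 fold change was -1.001 ± 0.10. That value sat at the fold threshold, and the call was lost with DESeq2 (-0.94), over reads mapping to 1 place (-0.89), and without 0 h replicate 1 (-0.87), 0 h replicate 2 (-0.97) or day 1 replicate 2 (-0.83). In Quant-seq 21.0% of Actb reads mapped to more than 1 place.

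Srf was also lowest on day 1, and its libraries at 8 h and on days 2 and 4 lay below both 0 h libraries too. Its level was 131 and 124 CPM at 0 h, 76.8 and 68.8 at 8 h, 45.03 and 49.0 on day 1, 90.6 and 81.1 on day 2, 113 and 115 on day 4 and 169 on day 6. It fell by 1.48 ± 0.18 on the log2 scale on day 1, while -0.74 ± 0.17 at 8 h and -0.65 ± 0.17 on day 2 did not reach the fold threshold. For Actb these were -0.03 ± 0.10 and 0.02 ± 0.10. Flna was 149.6 and 179 CPM at 0 h, 78.1 and 87.05 on day 1 and 196 and 201 on day 4. It fell by 1.04 ± 0.15 on day 1, a call lost with DESeq2 (-0.98) and without 0 h replicate 2 (-0.83) or day 1 replicate 1 (-0.89). Rock2 was 35.4 and 22.02 CPM at 0 h and 13.02 and 13.2 on day 1, and fell by 1.16 ± 0.32, which was -0.71 and no call without DMSO 0 h replicate 1.

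Ccn2 was 2.69 and 2.75 CPM at 0 h, 5.75 and 6.72 at 8 h, 42.3 and 39.1 on day 1, 57.2 and 20.05 on day 2, 31.5 and 15.4 on day 4 and 154 on day 6. Every library from day 1 on was above the 0 and 8 h libraries. The 0 h libraries held only 6 and 7 reads of Ccn2. It rose by 3.83 ± 1.02 on day 1, 3.69 ± 1.02 on day 2 and 2.93 ± 1.11 on day 4 on the log2 scale. The call of day 2 was lost without day 2 replicate 1 (2.79) and that of day 4 without day 4 replicate 1 (2.32) or either 0 h library (2.91 and 2.93).

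Lats2 was 3.58 and 2.36 CPM at 0 h, 10.3 and 6.99 on day 2, 13.1 and 6.53 on day 4 and 23.4 on day 6. It rose by 1.45 ± 0.48 on day 2 and 1.57 ± 0.46 on day 4. These calls were lost without 0 h replicate 2 (1.18 and 1.27), without day 2 replicate 1 (1.17) and without day 4 replicate 1 (0.99), and that of day 2 with DESeq2 (1.48).

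Ccn1 had 0 and 1 reads at 0 h, 2 and 5 on day 1, 8 and 0 on day 2, 8 and 5 on day 4 and 165 (72.7 CPM) on day 6. Ankrd1 had 0 reads in the 10 libraries of 0 h, 8 h and day 1, among 20296542 reads (up to 0.148 CPM together and 1.18 to 1.93 CPM in a single library), 2 and 1 on day 2, 4 and 0 on day 4 and 26 (11.5 CPM) on day 6. Both genes were thus highest in the day 6 library, for which no test was made.

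Amotl2 was 34.9 and 38.9 CPM at 0 h, 53.3 and 54.6 at 8 h, 67.8 and 70.0 on day 1, 114 and 117 on day 2, 86.5 and 80.2 on day 4 and 304 on day 6. It rose by 1.56 ± 0.15 on day 2 and 1.02 ± 0.15 on day 4, the latter no call without 0 h replicate 1 (0.93) or day 4 replicate 1 (0.96). At 8 h the direction depended on how reads mapped, and so did the size on day 1. An interval of 25 bases at chr9:102730561-102730585 held nearly only reads that mapped to more than 1 place, and over all Amotl2 intervals such reads numbered 14 and 22 at 0 h and 68 and 87 at 8 h, while reads mapping to 1 place went from 64 and 77 to 34 and 43. The log2 fold change at 8 h was 0.61 ± 0.16 over all reads and -0.64 ± 0.21 over reads mapping to 1 place. On day 1 reads mapping to more than 1 place numbered 67 and 75 and the others 58 and 52, and the log2 fold change was 0.85 ± 0.16 over all reads and 0.07 ± 0.20 over reads mapping to 1 place. Over the latter it was 1.45 ± 0.17 on day 2 and 1.09 ± 0.17 on day 4, past the thresholds as before.

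**Figure D4:**
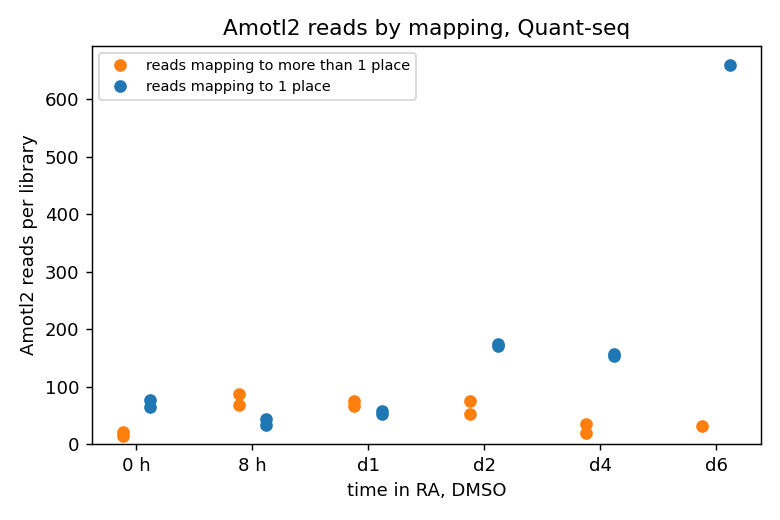
Amotl2 reads per DMSO library over time in RA, with reads mapping to 1 place (blue) and to more than 1 place (orange) apart. At 8 h the first kind numbered 34 and 43 and the second 68 and 87, the reverse order of 0 h (64 and 77 against 14 and 22).

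In all, 5 of 9 members tested passed the thresholds on day 1 against 0 h, 1 higher and 4 lower, where 29.4% of all genes did. On day 2 it was 3 of 9 and on day 4 again 3 of 9, all higher, where 26.4% and 30.5% did. DESeq2 called 3, 2 and 3 on these days, without Actb and Flna on day 1 and Lats2 on day 2. At 8 h it was 0 of 9 by edgeR, by DESeq2 and with an unadjusted p at the same fold, where 6.42% of all genes passed. The 9 include Ankrd1, Ccn1 and Lats2, which passed the filter on low counts through the later days.

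Auxin was compared with DMSO at the same time in RA, and Ccn2 was the member that passed the thresholds. With auxin, Ccn2 was 7.83 and 8.48 CPM at 8 h, 62.3 and 97.2 on day 1, 158.5 and 151 on day 2 and 166 and 218 on day 4. On days 1, 2 and 4 each auxin library was above each DMSO library of its day. Ccn2 was higher by 1.95 ± 0.55 on day 2 and 2.85 ± 0.58 on day 4 on the log2 scale, both past the thresholds, while 1.01 ± 0.60 on day 1 was not. The day 2 call was lost with DESeq2 and without DMSO day 2 replicate 2 (1.37) or either auxin library of that day (1.91 and 1.98), and the day 4 call held under every alternative and without each library in turn. On day 6 the auxin libraries read 341 and 18.2 CPM, on either side of the DMSO value of 154.

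The other members did not pass the thresholds between auxin and DMSO. Actb on day 4 was 4175 and 4224 CPM with DMSO and 3350.5 and 3511 with auxin, a log2 fold change of -0.47 ± 0.10. Amotl2 on day 4 was 0.57 ± 0.13 higher with auxin, and Srf 0.22 higher (158 and 142 CPM against 113 and 115). Ccn1 had 14 and 8 reads on day 2 with auxin against 8 and 0 with DMSO, and 9 and 12 against 8 and 5 on day 4. In counts, 1 of 9 members passed on day 2 and 1 of 9 on day 4, Ccn2 both times, where 4.81% and 7.25% of all genes did. On day 1 it was 0 of 9 by edgeR, by DESeq2 and with an unadjusted p, where 2.39% of all genes passed, and at 8 h likewise 0 of 9, where 0.158% did.

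Markers of cell types moved over the same days. Summed embryonic stem cell markers went from 6940 to 7144 CPM at 0 h to 7412 to 7540 on day 1 and 3382 to 3397 on day 4 with DMSO, and were 2163 to 2214 on day 4 with auxin. The sum hides unlike members, since on day 1 with DMSO 4 of the 8 markers fell and 1 rose, with a median of -1.002 and falls by 2.71 for Tdgf1, 2.24 for Esrrb and 2.03 for Klf4. Between auxin and DMSO on day 4, 1 of the 8 was lower (Dppa5a, -1.27) and 1 higher (Tdgf1, 1.05), where 7.25% of all genes were called. Summed primitive and parietal endoderm markers went from 32.3 to 33.4 CPM to 1834 to 1868 with DMSO and 768 to 783 with auxin on day 4. Summed fibroblast markers were 36.6 to 47.0 CPM at 0 h, and on day 4 35.0 to 44.2 with DMSO and 71.8 to 75.1 with auxin. That sum too hides unlike members. With DMSO on day 4 Thy1 fell by 4.09, while Dcn, Col1a2 and Col3a1 rose by 8.45, 5.71 and 4.99. These were the called genes of 6 tested, where 30.5% of all genes were called. Of the 8 markers 5 had no read at 0 h, so the filter on low counts favours rises. The part of these changes in the member values was not tested, and in such bulk samples fewer cells of a type and less RNA per cell cannot be told apart.

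**Figure D5:**
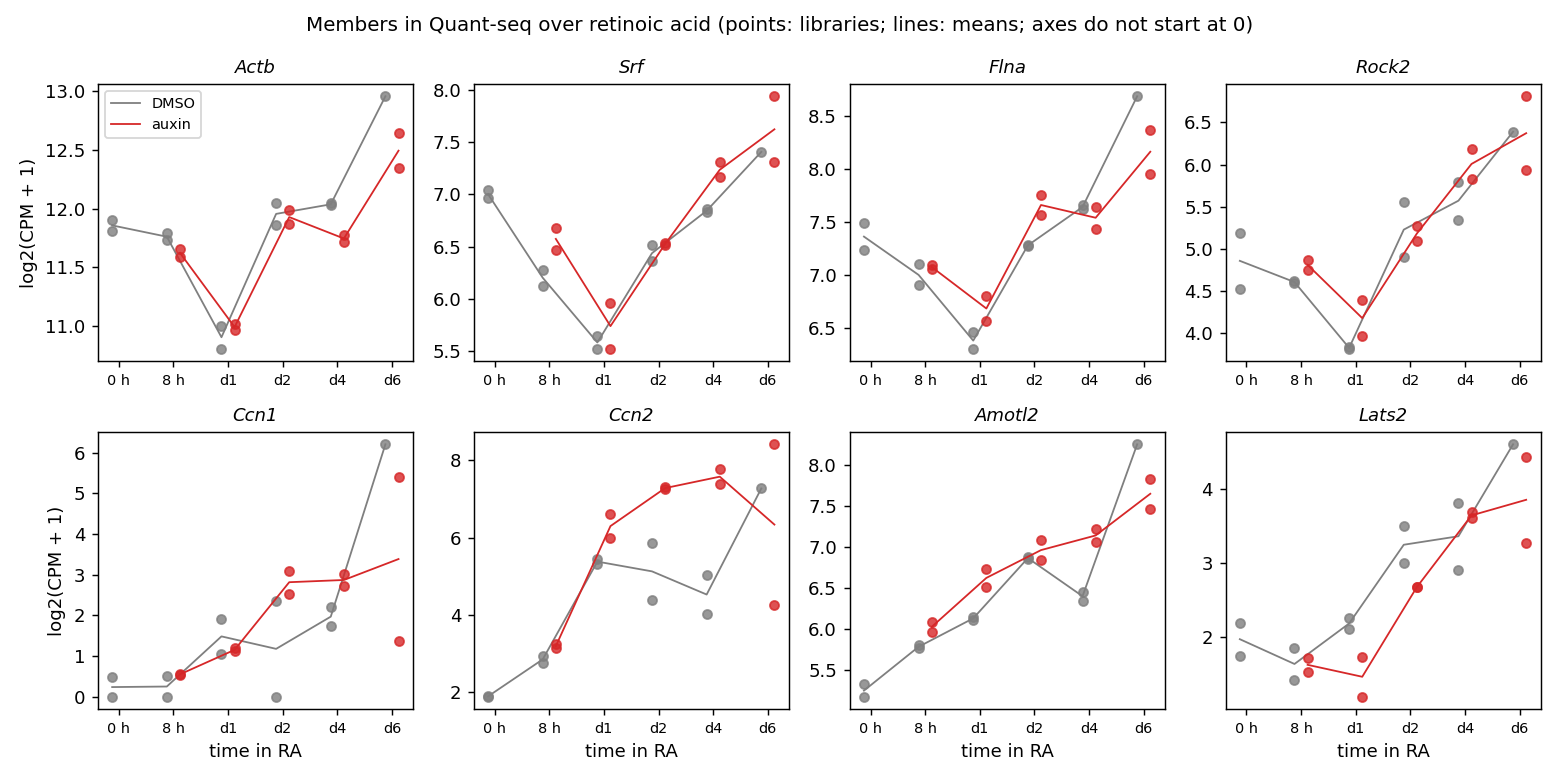
Total level of 8 members as log2(CPM + 1) in Quant-seq over time in RA, with DMSO (grey) and auxin (red); points are libraries, lines join group means, and the axes do not start at 0. Actb, Srf, Flna and Rock2 were lowest on day 1, and Ccn2 with auxin (151 to 218 CPM on days 2 and 4) lay above DMSO (15.4 to 57.2 CPM).

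Libraries of the same group differed by more for the CCN genes than for the cytoskeletal genes. Over groups of 2 libraries, the ratio of the higher to the lower had a median of 1.05 and reached 1.23 for Actb. These were 1.11 and 1.55 for Srf, 1.37 and 18.7 for Ccn2, and 1.58 and 26.1 for Ccn1. Other members with few reads also spread widely, at 1.51 and 2.50 for Lats2 and 2.21 and 12.2 for Ankrd1. Groups with a library of 0 reads were left out, leaving 13 for Ccn1 and 5 for Ankrd1. The part of counting error in this spread was not tested. Ccn1 and Ccn2 were higher in the same library in 5 of 6 dKO groups and in 9 of 10 Quant-seq groups. However, Ccn1 had 1 and 1 reads with auxin at 8 h, 2 and 2 with auxin on day 1, and 0 and 1 with DMSO at 0 h and at 8 h. The order in those Quant-seq groups rests on almost no reads, and on library size where the reads were equal. Set against Ccn2 in the same way, Actb, Srf, Flna, Rock2, Lats2 and Amotl2 shared the higher library in 1 to 4 of 6 and 2 to 6 of 10 groups. Ankrd1 shared it, on few reads, in 3 of 6 dKO groups and in 5 of 10 Quant-seq groups, and was tied in the other 5. Auxin day 6 library 1 had 60 Ccn1 reads against 2 in library 2, so both CCN genes were high there.

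Genes of the same pathways that are not members were taken from lists made with earlier results of these data known, so their counts and adjusted p-values (edgeR, over all genes tested) describe these libraries and are no independent support. Among SRF cofactors and regulators of actin turnover, 17 were tested for T>C reads at 8 h in DPY30–mAID cells and 2 fell: Cfl1, encoding the actin-severing cofilin (-1.64 ± 0.30, adjusted p = 0.000226), and Arpc2, a subunit of the ARP2/3 complex (-1.18 ± 0.34, adjusted p = 0.013). The median of the list was -0.41, beside -0.72 for all genes, of which 14.8% were called, and with T>C reads scaled to each other 0 of the 17 were called. At 24 h 1 of the 17 changed, where 3.5% of all genes did, and likewise 1 with that scaling. Dstn, the gene of the actin-depolymerising protein destrin, rose by 1.92 ± 0.34 (adjusted p = 0.000459). At 24 h in RBBP5–FKBP cells 3 of 13 fell (Wdr1, Arpc2 and Cfl1, by 1.71, 1.30 and 1.21), with a list median of -0.58 beside -0.91; 23% of all genes were called, and 0 of the 13 with T>C reads scaled to each other.

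Among actin cytoskeleton genes known as SRF targets, 2 of 13 fell at 8 h in DPY30–mAID cells, where 14.8% of all genes were called (1 of 13 with T>C reads scaled to each other). Actg1, which encodes the other cytoplasmic actin, went from 504 to 524 CPM of T>C reads at 0 h to 97.5 to 229 at 8 h and 644 to 724 at 24 h. It fell by 1.78 ± 0.27 at 8 h (adjusted p = 1.64e-05), and in RBBP5–FKBP cells by 1.44 ± 0.18 at 24 h (adjusted p = 2.86e-09). Scaled to each other, its T>C reads changed by -1.07 and -0.56, the former still a call. There 4 of 12 fell at 24 h, where 23% of all genes were called (0 of 12 with that scaling), with a list median of -1.07 beside -0.91 for all genes; they included Tagln2 (-2.14 ± 0.54) and Pdlim7, which had 18, 14 and 7 T>C reads at 0 h and 0 in each 24 h library. Pdlim7 held 4 to 7 T>C reads a library at 2 h and 1 to 9 at 8 h. It thus passed the filter on low counts only through the 0 h group, where it was high, which favours a fall. For total reads at 24 h in DPY30–mAID cells 5 of 19 fell and 1 rose, where 13.2% of all genes were called. Those that fell included the adhesion genes Zyx (-1.99 ± 0.52) and Tln1 (-1.27 ± 0.20).

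In the Hippo pathway, 5 of 20 genes fell at 8 h in DPY30–mAID cells, with a list median of -1.03 beside -0.72, where 14.8% of all genes were called. With T>C reads scaled to each other 0 of the 20 were. Yap1 itself was 46.9 to 72.8 CPM of T>C reads at 0 h, 8.66 to 28.1 at 8 h and 14.0 to 22.3 at 24 h. It fell by 1.67 ± 0.37 at 8 h (adjusted p = 0.00178) and 1.71 ± 0.37 at 24 h (adjusted p = 0.00541), in RBBP5–FKBP cells by 1.48 ± 0.39 at 24 h (adjusted p = 0.00285), and in dKO cells by 1.53 ± 0.32 at 48 h (adjusted p = 3.6e-05). Scaled to each other, these changes were -0.99, -1.59, -0.58 and -0.23, of which that of 24 h in DPY30–mAID cells stayed past the thresholds. Of 17 genes tested at 24 h in RBBP5–FKBP cells, 7 fell, with a list median of -1.10 beside -0.91, where 23% of all genes were called, and 0 were called with that scaling. Tead4, a TEAD factor gene, fell by 2.72 ± 0.29 (adjusted p = 8.39e-11) in total reads at 24 h in DPY30–mAID cells. It went from 45.6 to 54.9 CPM to 6.30 to 8.48. Of the other YAP signature genes, 3 of 11 were lower and 1 higher there, with a median of -0.63 beside 0.01, where 13.2% of all genes were called. In dKO cells at 24 h 0 of 13 were called in total reads (median 0.05), where 1.46% of all genes were. In T>C reads 3 of 3 were lower there, where 27.2% of all genes were called. Scaled to each other, these changes were -1.77, -0.33 and -0.28, none past the thresholds.

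In dKO cells at 48 h, 10 of 16 SRF cofactor genes, 9 of 16 Hippo genes and 9 of 11 focal adhesion genes fell, with list medians of -1.15, -1.01 and -1.32 beside -1.29 for all genes, of which 64.7% were called. With T>C reads scaled to each other, 0, 1 and 0 of these genes were lower and 2, 1 and 0 higher. Amotl1, a relative of Amotl2, fell by 2.68 ± 0.37 (adjusted p = 1.31e-09), and by 1.40 with that scaling, still past the thresholds. Of the SRF target list, 4 of 14 fell and 1 rose, with a median of -0.85, and 0 were lower and 1 higher with that scaling.

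Of the focal adhesion genes, Tns3, which encodes a tensin that ties integrins to actin, fell in each line. Its T>C reads in DPY30–mAID cells were 59.6 to 70.5 CPM at 0 h, 16.5 to 36.2 at 8 h and 8.88 to 13.6 at 24 h, with a fall by 2.53 ± 0.38 at 24 h (adjusted p = 4.86e-05). In RBBP5–FKBP cells it fell by 1.74 ± 0.35 at 24 h (adjusted p = 0.00013) and dKO cells at 48 h had a log2 fold change of -2.198 ± 0.28 (adjusted p = 2.84e-10). Scaled to each other, these changes were -2.42, -0.86 and -0.90, of which the first stayed past the thresholds. The focal adhesion list had 4 of 12 genes lower at 8 h in DPY30–mAID cells (median -0.89 beside -0.72) and 4 of 9 at 24 h in RBBP5–FKBP cells (-1.25 beside -0.91), where 14.8% and 23% of all genes were called, and 0 and 1 with that scaling.

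In RA with DMSO, 10 of 14 other YAP signature genes rose and 1 fell on day 4, with a list median of 2.09 beside 0.06 for all genes, of which 30.5% were called. Genes without reads at 0 h could pass the filter on low counts through the later days in which they were high, so this count and median favour rises. They included Tgfb2, which encodes a TGF-beta ligand and went from 0 to 0.786 CPM at 0 h to 174 to 188 on day 4 (8.41 ± 0.45, adjusted p = 1.17e-14), and Ptpn14 (3.90 ± 0.32, adjusted p = 8.3e-11). In the Hippo list 10 of 23 rose and 1 fell, a count that the filter favours in the same way. Among the rises, Amot, the founding angiomotin, was low at 0 h. It went from 1.57 to 2.69 CPM to 251 to 284 (6.80 ± 0.24, adjusted p = 3.53e-18). On day 1, where 29.4% of all genes were called, the SRF target list had 6 of 25 lower and 2 higher, with Actg1 lower by 2.10 ± 0.10 (adjusted p = 1.36e-15), from 3235 to 3545 CPM to 793 to 842. On day 4 8 of these 25 were higher and none lower, with a list median of 0.35. Here too the filter on low counts favours rises, since some genes of the list had no read at 0 h.

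Between auxin and DMSO, 0 to 3 genes of each list were called on a day. On day 1 Tead1 was higher with auxin (89.1 to 93.3 CPM against 40.2 to 40.7; 1.22 ± 0.16, adjusted p = 1.18e-05), and so was Nt5e, a YAP signature gene (2.53 ± 0.29, adjusted p = 1.98e-06). Tgfb2 was lower with auxin on day 2 (-2.10 ± 0.54, adjusted p = 0.00886) and day 4 (72.4 to 79.4 CPM against 174 to 188; -1.43 ± 0.21, adjusted p = 1.75e-05), the opposite direction to Ccn2, while the YAP signature gene Myof was higher on day 2 (1.30 ± 0.23, adjusted p = 0.000223), in the direction of Ccn2. Of the 14 YAP signature genes 1, 2 and 1 were called on days 1, 2 and 4, and of the 25 SRF targets 1, 3 and 1. Those of day 2 were Fhl1 (-1.58 ± 0.23), Tpm4 (-1.10 ± 0.14) and Flnc (1.23 ± 0.39). Of all genes 2.39, 4.81 and 7.25% were called on these days.

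Over the means of log2(CPM + 1) in the 11 Quant-seq groups, the genes whose course was most like that of Actb among 11415 genes were Lrrc58 (Pearson r = 0.99), Flna (0.96) and Ehmt2 (0.96). For Ccn2 they were 3830406C13Rik (0.98), Tmem135 (0.96) and Csf2ra (0.96), and for Ccn1 Cst11 (0.97), Ncoa5 (0.96) and Rufy2 (0.96). The groups share a single start and a time course, so these values describe likeness only.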

How the data were processed

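RNA of 36 SLAM-seq and 22 Quant-seq libraries (QuantSeq 3′ FWD kit, without molecular identifiers) was measured. Per the file headers, the authors made the deposited counts with SlamDunk 0.3.4 over 3′ UTR intervals of the GRCm38 (mm10) annotation: reads, reads with a T>C conversion (T>C reads), reads mapping to more than 1 place, T positions covered and conversions. The study's notes name HISAT2 2.2.1 and featureCounts for Quant-seq, while the headers name SlamDunk. A threshold of more than a single conversion per read was not applied in these counts. The deposited CPM column was not used.

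Intervals were summed per gene. Genes averaging 10 or more reads in some group were fitted with edgeR 4.0.16 (quasi-likelihood test, TMM factors of total reads, Benjamini-Hochberg adjustment, R 4.3.3) in a fit per line for SLAM-seq and over all groups for Quant-seq, and called at an adjusted p of at most 0.05 and an absolute log2 fold change of at least 1. DMSO day 6 entered once. The alternatives were DESeq2 1.42.0, other scalings, no filter, a replicate block, left-out libraries, reads mapping to 1 place and the interval with the most reads of a gene. The fits were tested on simulated data. Same-numbered libraries deviated together with a mean r of -0.00836 to 0.0447, so the numbers were not taken as pairs.

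The members and the gene lists were chosen with earlier results of these data known. All members were named. From each list, all called genes were eligible where 4 or fewer were called, otherwise the 3 with the largest change, and the text gives a selection of these. Genes of like course were the 3 with the highest Pearson r to Actb, Ccn1 and Ccn2.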

Additional observations from a re-analysis of the deposited data

Results flagged for a closer look

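Between lines, some members moved in opposite directions in every library under the same contrast. None of these differences was tested, and none is weighed here. For T>C reads of Actb at 24 h against 0 h, all DPY30–mAID libraries were higher (log2 fold change 0.41) and all RBBP5–FKBP libraries lower (-1.81), a difference of 2.22. All dKO libraries were lower too (-0.20), a difference of 0.62 from DPY30–mAID cells. With T>C reads scaled to each other the changes were 0.53 in DPY30–mAID, -0.91 in RBBP5–FKBP and 0.59 in dKO cells, so that DPY30–mAID and dKO cells then moved the same way.

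Total Srf was higher than the controls in all dKO libraries at 8 h (0.18) and 24 h (0.36) and lower in all libraries of the other lines at these times. At 8 h the difference was 0.66 to DPY30–mAID cells and 1.11 to RBBP5–FKBP cells, and at 24 h it was 0.85 and 1.35.

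Total Amotl2 in dKO cells was higher at 8 h (0.23), against lower values in DPY30–mAID (-0.72) and RBBP5–FKBP cells (-0.59), with differences of 0.95 and 0.82. At 24 h it was higher in DPY30–mAID (0.67) and dKO cells (0.64) and lower in RBBP5–FKBP cells (-1.05), with differences of 1.72 and 1.70. The Rock2 total at 24 h was higher in dKO (0.10) and lower in DPY30–mAID cells (-0.67), a difference of 0.77. For Flna totals the differences between DPY30–mAID and dKO cells were 0.18 at 2 h and 0.24 at 8 h, on changes of at most 0.16 in size.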

How the results depend on the processing

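Of 2640 member fold changes recomputed under the alternatives, 2423 stayed within 1 SD between libraries of the value reported and 217 moved by more. The sign changed in 154, of which 46 also moved by more than that SD, 12 of them with T>C reads scaled to each other. Changes reported as past the thresholds reversed in 2 cases: T>C reads of Ccn1 at 48 h in dKO cells, at 0.15 with T>C reads scaled to each other, and T>C reads of Ccn2 at 48 h in dKO cells, at -0.18 to 2.45 with a library left out (-0.18 without 48 h replicate 2). The number of member calls in the T>C fit of DPY30–mAID cells, 1 as reported, was 2 with DESeq2, 2 with T>C reads scaled to each other, 2 under the replicate block and 0 to 3 with a replicate or library left out. In RBBP5–FKBP cells 3 calls became 0 with T>C reads scaled to each other, and in dKO cells 5 became 1 with DESeq2 and 3 to 5 with a library left out. For total reads of RBBP5–FKBP cells 1 call became 4 with DESeq2, 2 without a filter on low counts and 0 to 2 with a replicate left out, and for those of dKO cells 2 became 4 without the filter. Leaving out a library gave 1 to 2 calls in place of 1 for total reads of DPY30–mAID cells. The 13 calls of the Quant-seq fit became 9 to 17. The replicate block changed the number of member calls in no other fit.

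Among all genes, DESeq2 called 381 in place of 221 at 24 h in DPY30–mAID and 1035 in place of 1621 at 24 h in dKO cells for T>C reads, 81 in place of 166 at 24 h and 159 in place of 276 at 48 h for total reads of dKO cells, and 142, 265 and 422 in place of 273, 549 and 828 between auxin and DMSO on days 1, 2 and 4. Its split on day 2 was 147 lower and 118 higher in place of 215 and 334. Without TMM factors 618 genes in place of 934 were called at 8 h in DPY30–mAID cells. Leaving out a replicate number was not possible where groups had 2 libraries, since no residual degrees of freedom remained, so single libraries were left out instead, a choice made after seeing the data that assumes a lone library varies like the other groups. Depth limited Lats2 and Ankrd1 in every line and Ccn1 outside dKO cells, and T>C reads of Srf were few and uneven between libraries. The cause of these changes was not tested.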
